A study of Ovis aries with 3 samples.

Results

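The cells described here are 937 keratinocytes of the rumen epithelium that carried many transcripts of the stress and early-response genes ATF3, RCAN1, RND1 and BHLHE40. They were chosen within the library of the milk-only diet, and they are called stress-response keratinocytes below. They made up 39.6% of the 2364 keratinocytes of that library (exact Clopper-Pearson interval 37.7 to 41.6%), of 3850 cells in the library and 15772 cells in the series. The comparison group was the 1206 keratinocytes of the same library with a sum of 0 or 1 UMI of the 4 genes, called low-sum keratinocytes. The remaining 221 keratinocytes lay between the groups. A UMI is a molecular tag that marks 1 captured RNA molecule.

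The series holds 3 droplet-based single-cell RNA libraries of rumen epithelium from Hu sheep at 42 days of age. The diets were milk only, milk with alfalfa hay, and milk with concentrate starter, and each was represented by 1 library. The labels give neither the number nor the sex of the lambs behind a library, so diet, animal and library preparation cannot be told apart. Preparation included digestion of the tissue in warm trypsin. Whether the chosen cells had these levels in the animal before digestion was not tested. No test between cells or diets was made, and every interval below is a 95% interval that covers counting error only.

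A keratinocyte had at least 500 genes, under 20% of UMIs from the 13 mitochondrially encoded genes, at least 5 UMIs of the basal keratin KRT15, at most 2 UMIs of the differentiation genes KRTDAP, A2ML1 and KRT36 together, and no UMI of the immune genes PTPRC and C1QA. A stress-response keratinocyte also had at least 5 UMIs of the 4 genes, at 4 or more per 10000 UMIs. Because the rule used measured values, the levels of these genes describe the choice and are no finding. The sum had a median of 20.6 per 10000 UMIs in the chosen cells (4.10 to 109.5). ATF3 gave 48.1% of these UMIs, BHLHE40 32.3%, RCAN1 12.4% and RND1 7.23%. UMIs of all 4 genes were present in 239 cells, of 3 genes in 409, of 2 genes in 266 and of 1 gene in 23.

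Keratinocytes respond to injury, heat, growth factors or inflammatory signals with a fast wave of transcription that needs no new protein. Its first products are the immediate early factors, among them the AP-1 subunits FOS and JUN and the zinc finger factors EGR1 and EGR2. Inhibitors such as NFKBIA, TNFAIP3 and ZFP36 follow and limit NF-kB signalling or destabilise mRNA. ATF3 is a CREB-family factor induced by many stresses, BHLHE40 a transcriptional repressor, RCAN1 an inhibitor of the phosphatase calcineurin, and RND1 a small GTP-binding protein that loosens the actin cytoskeleton. In the rumen, the basal and intermediate layers of this stratified epithelium also absorb short-chain fatty acids and oxidise butyrate.

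The chosen cells carried the genes that define keratinocytes, as the low-sum cells did. Levels are given as CPM, the UMIs of a gene per 1000000 UMIs summed over the cells of a group. The integrin ITGA6 stood at 181 against 156 CPM, the desmosomal protein DSP at 218 against 227, the hemidesmosomal collagen COL17A1 at 149 against 101, and the keratin KRT17 at 1330 against 964. The lineage factor TP63 was lower, at 40.0 against 58.3 CPM. Each of the 4 genes was also read in cells chosen with the other 3 alone. ATF3 was then 40.2-fold higher in the chosen than in the low-sum cells, RCAN1 40.5-fold, RND1 147-fold and BHLHE40 15.6-fold. ZFP36, the only marker of the cells that the rule did not use, had a UMI in 934 of 937 chosen cells and in 437 of 1206 low-sum cells. The 4 genes and ZFP36 were named together as markers of these cells, with earlier results of these data known. Their values here therefore describe the choice and give no separate support for the group.

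Markers of other cell types were scarce in both groups. The summed level of T and NK cell markers was 1.79 CPM in stress-response and 3.03 CPM in low-sum keratinocytes, that of macrophage and dendritic cell markers 8.89 and 13.8, of endothelial markers 2.92 and 2.82, and of smooth muscle markers 1.20 and 1.17. The neutrophil list stood at 478 and 743 CPM, almost all of it S100A8, S100A9 and S100A12, which keratinocytes also make, while the defining neutrophil genes CSF3R and MPO were at 0 in both. The fibroblast list stood at 304 and 163 CPM. Of these, 300 and 159 CPM were the proteoglycan DCN, and COL1A2, LUM, PDGFRA and COL6A3 were at 0 in both groups.

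Depth and RNA quality differed somewhat between the groups. Stress-response keratinocytes had a median of 12273 UMIs (2915 to 62119) and 1929 genes, low-sum keratinocytes 11108.5 UMIs (1181 to 76218) and 1756.5 genes. The rule asks for UMIs and so favours deep cells. The median share of mitochondrially encoded UMIs was 5.50% in stress-response (quartiles 4.34 and 7.05) and 8.17% in low-sum keratinocytes (5.50 and 11.7). With the mitochondrial limit set at 10% in place of 20%, the count of genes higher at 2-fold was 254, against 268. Of the cell barcodes, 17 were shared by the milk-only and hay libraries and 15 by the milk-only and concentrate libraries, of which 1 and 3 were chosen cells in the milk-only library. No shared barcode met the rule in both of its libraries.

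The share of such cells was far larger in the milk-only library than in the others. The same rule found 187 of 6465 keratinocytes with hay (2.89%, 2.50 to 3.33) and 217 of 4466 with concentrate (4.86%, 4.25 to 5.53). Keratinocytes of the 3 libraries differed in depth, with medians of 12154, 5922 and 8230 UMIs for milk only, hay and concentrate. With the 4 genes counted after each keratinocyte was thinned to 5000 UMIs, the shares were 35.9% (33.8 to 38.0), 2.08% (1.68 to 2.54) and 2.68% (2.18 to 3.25). Thinning left out 262, 1994 and 769 shallower keratinocytes. These held 14 of 937, 44 of 187 and 80 of 217 cells that met the rule at full depth. In cells of 5000 UMIs, the minimum of 5 UMIs was a stricter cut than 4 per 10000 UMIs. The milk-only share was the largest under this stricter cut at equal depth too. The rule was set for cells of the milk-only library with earlier results of these data known. The choice therefore favoured a larger share there, and thinning repeats that choice. The intervals of hay and concentrate, which cover counting error only, overlapped after thinning, and no order between single libraries was tested. In barcodes of the milk-only library with under 500 genes, 3 of 2672 reached the sum (0.112%, median 1211 UMIs), and the 4 genes stood at 25.1 CPM against 961 CPM in keratinocytes.

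**Figure D1:**
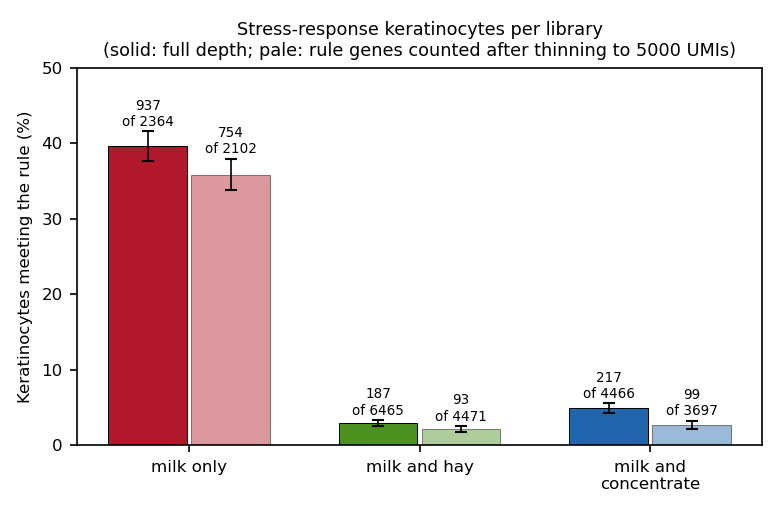
Share of keratinocytes that met the rule (%, y axis) in each of the 3 libraries, at full depth (solid bars) and with the 4 genes counted after thinning to 5000 UMIs (pale bars). Error bars are exact 95% Clopper-Pearson intervals. Milk only stood at 39.6% and 35.9%, hay at 2.89% and 2.08%, concentrate at 4.86% and 2.68%.

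In the milk-only library the stress-response keratinocytes held a wide set of higher genes and a smaller set of lower ones. Of 4531 measured genes (a mean of at least 10 CPM over the groups, without the 4 genes of the rule), 268 were higher at 2-fold or more (5.91%) and 55 were lower at 2-fold (1.21%). The median log2 ratio over all measured genes was 0.01, so the groups were centred alike. The count of lower genes moved with the setting, to 177 with cells thinned to 5000 UMIs and to 145, beside 285 higher genes, with each cell weighted alike. Among genes outside the rule with at least 50 CPM in the higher group, the highest ratios were those of ZFP36, FOS and FOSB, with the NF-kB inhibitors, the p53 and growth arrest genes and the EGF receptor ligand AREG beside them. The lowest ratios belonged to the gap junction gene GJA1, to retinoid and fatty acid binding proteins, to glutathione enzymes and to carbonic anhydrase CA1.

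**Figure D2:**
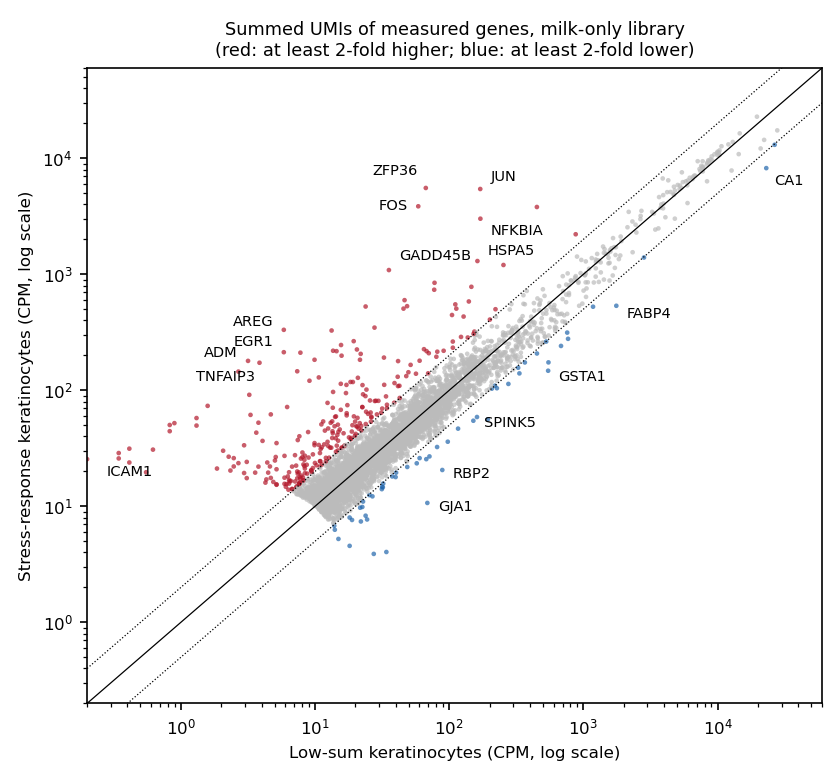
Summed level of each measured gene in low-sum keratinocytes (x axis) and stress-response keratinocytes (y axis) of the milk-only library, both in CPM on log scales. The solid line marks equal levels and the dotted lines 2-fold. Red points are the 268 genes higher at 2-fold and blue points the 55 genes lower at 2-fold, and the far upper left holds ZFP36, FOS and JUN.

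Subunits of the AP-1 factor were scarce in the low-sum cells and much higher in the chosen cells. FOS stood at 3855 CPM in stress-response (3821 to 3888) and 58.8 CPM in low-sum keratinocytes (54.9 to 62.8), a 65.6-fold difference (61.3 to 70.3). JUN, its dimer partner, stood at 5435 against 170 CPM (31.9-fold, 30.7 to 33.2). FOSB stood at 50.2 against 0.826 CPM (60.8-fold, 34.6 to 118) and JUNB at 52.5 against 3.78 CPM (13.9-fold, 10.5 to 18.6). The AP-1 list had 11 genes with a symbol, of which 1 belonged to the rule and 4 were under the limit. At 1.5-fold, 4 of the 6 measured genes were higher and none lower, with a median log2 ratio of 4.4, where 12.4% of all measured genes were higher and 8.25% lower. The others, among them MAFG (1.42-fold), were within 1.5-fold.

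All 12 measured immediate early factors of 24 listed with a symbol were higher at 1.5-fold, where 12.4% of all measured genes were. Their median log2 ratio was 3.46. EGR1 stood at 213 against 5.85 CPM (36.4-fold, 29.3 to 45.7), and EGR2 at 57.6 against 1.31 CPM (44.1-fold, 28.0 to 73.6). The antiproliferative gene BTG2 was 24.7-fold higher (21.3 to 28.6), the ADP-ribosyltransferase gene TIPARP 15-fold and the survival gene IER3 11.1-fold (10.2 to 12). A gene silent in 1 group could pass the limit through its level in the other, so the counts of measured genes are a description. The 5 measured genes of MAP kinase and growth factor feedback of 19 were higher too, with a median of 3.13. Among these, SOCS3, a brake on cytokine receptor signalling, was 28.3-fold higher (21.1 to 38.7), RGS2, an inhibitor of G protein signalling, 8.77-fold, and SPRY1 1.61-fold.

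Inhibitors of NF-kB and mRNA-decay factors were higher as a group. Of 20 genes, 12 were measured, with a median log2 ratio of 3.15. At 1.5-fold, 10 were higher and none was lower, where 12.4% of all measured genes were higher and 8.25% lower. ZFP36, which binds AU-rich elements and shortens the life of cytokine mRNAs, stood at 5546 CPM (5507 to 5586) in stress-response and 66.9 CPM (62.7 to 71.2) in low-sum keratinocytes, an 82.9-fold difference (77.8 to 88.4). NFKBIA, the inhibitor that holds NF-kB in the cytoplasm, stood at 3014 against 171 CPM (17.7-fold, 17.0 to 18.4). TNFAIP3, a ubiquitin-editing enzyme, stood at 173 against 3.85 CPM (44.8-fold, 34.4 to 59.5). The endoribonuclease gene ZC3H12A was 35.7-fold higher (17.9 to 83.6), from 8 UMIs in the low-sum cells, and BIRC3, an inhibitor of apoptosis, 15.7-fold (13.7 to 18.1).

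Cytokine and inflammatory genes went in both directions. At 1.5-fold, 12.4% of all measured genes were higher and 8.25% lower. Only 6 of 26 genes of this list were measured, with 2 higher, 2 lower and a median of 0.43. This median depended on the expression limit, at 1.16 from 1 CPM and -1.0 from 50 CPM. The higher ones were the leukocyte adhesion molecule ICAM1, at 28.8 against 0.344 CPM (83.6-fold, 35.5 to 259), and the interferon regulatory factor IRF1, at 73.4 against 1.58 CPM (46.4-fold, 30.7 to 73.5). The low-sum cells held only 5 UMIs of ICAM1. The lower ones were the alarmins S100A8 (174 against 366 CPM) and S100A12 (110 against 219 CPM). Both were lower under every alternative, but neither by 2-fold in all of them. The alarmin S100A9 went the other way, at 194 against 158 CPM. Of 7 measured interferon response genes of 25, ISG15 (13.2-fold, 10.3 to 17.2), IRF7 (5.41-fold) and the RNA sensor IFIH1 (2.71-fold) were higher, and the list median was -0.10. The UMIs of ISG15 came from 128 of the 937 chosen cells, and 1 low-sum cell held 26 of the 68 low-sum UMIs.

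Both measured EGF receptor ligands of 7 listed were higher at 1.5-fold, where 12.4% of all measured genes were. AREG stood at 332 against 5.85 CPM (56.8-fold, 45.8 to 71.2) and HBEGF at 114 against 15.6 CPM (7.31-fold, 6.35 to 8.44). AREG was uneven among the chosen cells, with 0 UMIs in 550 of 937. ADM, the precursor of the vasodilator adrenomedullin, stood at 179 against 3.17 CPM (56.6-fold, 42.3 to 77.6), with UMIs in 245 cells. The other hypoxia and glycolysis genes differed less, with NDRG1 at 2.62-fold, VEGFA at 2.47-fold and HIF1A at 1.76-fold, TPI1 1.51-fold lower, and a median of 0.33 over 12 of 24 genes.

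Growth arrest genes were higher in part, with 8 of 14 measured genes of 27 past 1.5-fold, where 12.4% of all measured genes were. The median log2 ratio was 0.79, but it depended on the setting and ran from 0.35 to 4.31 over the alternatives. GADD45B stood at 1087 against 35.5 CPM (30.6-fold, 28.0 to 33.5), and CDKN1A, the inhibitor of cyclin-dependent kinases, at 211 against 7.78 CPM (27.1-fold, 22.5 to 33.0). GADD45A was 19.8-fold higher (16.3 to 24.3), the anti-apoptotic BCL2 relative MCL1 4.16-fold, and the polo-like kinase gene PLK2 3.21-fold. Of 24 measured G2 and mitosis genes 1 was lower and none higher (median -0.13), and of 14 S phase genes 1 was lower (median -0.02). The G2 and mitosis median depended on depth and on the weight of deep cells. It was -0.83 in cells of 5000 to 20000 UMIs, -0.72 with thinned cells, -0.49 with cells weighted alike and 0.19 without the cells called cycling. Cells with at least 2 UMIs of TOP2A, CENPF and MKI67 together were 14.6% of stress-response (12.4 to 17.0) and 19.7% of low-sum keratinocytes (17.5 to 22.1), and 9.02% (7.07 to 11.3) and 16.5% (14.4 to 18.8) after thinning to 5000 UMIs. The part of free RNA in these shares was not tested. TOP2A, a topoisomerase of dividing cells, stood at 156 against 206 CPM and the kinetochore protein CENPF at 125 against 163 CPM.

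Genes of the integrated stress response were higher in part. Of this list, 7 of 13 measured genes of 28 were higher (median 0.63, but 0.03 with genes from 1 CPM). The pseudokinase gene TRIB1 was 76.0-fold higher (34.6 to 208), from 6 UMIs in the low-sum cells. DDIT3, the CHOP factor, stood at 129 against 10.7 CPM (12.1-fold, 10.3 to 14.4) and ATF4, the factor that drives the branch, at 1202 against 254 CPM (4.74-fold, 4.57 to 4.92). The other 6 measured genes of the list, which include amino acid enzymes, were within 1.5-fold. In the unfolded protein response list, 3 of 14 genes were higher, 1 was lower and the median was 0.08. Over all measured genes, 12.4% were higher and 8.25% lower at 1.5-fold, so the 1 lower gene lay near that share. The endoplasmic reticulum chaperone HSPA5 stood at 1301 against 162 CPM (8.02-fold, 7.68 to 8.37) and HERPUD1, of the degradation pathway of that compartment, at 27.6 against 7.09 CPM, while SDF2L1 was 1.89-fold lower. Among heat shock proteins 6 of 14 were higher and none lower (median 0.41), led by HSPA6 (5.01-fold, 4.06 to 6.23), DNAJB4 (3.39-fold) and HSPA1A (2.65-fold).

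Cytoskeletal and wound-edge genes were higher in part. RND3, a relative of RND1, stood at 121 against 9.08 CPM (13.3-fold, 11.1 to 16). None of 6 measured calcineurin and NFAT genes was past 1.5-fold, where 12.4% of all measured genes were higher and 8.25% lower. With so few genes measured, nothing is read from this, or from the absence of lower genes in the actin and wound-edge lists. Of 17 actin cytoskeleton genes 5 were higher and none lower (median 0.34), among them vinculin VCL (3.42-fold, 2.93 to 4.0), gamma-actin ACTG1 (3.38-fold, 3.21 to 3.56) and tropomyosin TPM4 (2.97-fold). Of 12 wound-edge genes 7 were higher and none lower (median 0.93). They included urokinase PLAU (20.3 against 2.34 CPM, with UMIs in 50 of the 937 cells) and tissue factor F3 (96.8 against 13.6 CPM). The collagenase MMP13 was 38.0-fold higher (24.1 to 63.5), yet its UMIs came from 59 of the 937 cells.

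KLF4, a factor of the differentiating layers, stood at 206 against 21.9 CPM (9.41-fold, 8.38 to 10.6), whereas KLF5 was 1.56-fold higher and the other 6 measured differentiation regulators were within 1.5-fold. Of 9 measured tight and gap junction genes of 20, 4 were higher and 1 was lower (median 0.52). The higher ones were CLDN4 (9.02-fold, 6.88 to 12), CLDN1 (2.91-fold), OCLN (1.80-fold) and TJP1 (1.57-fold). The lower one, GJA1, the gap junction protein connexin 43, stood at 10.7 against 68.7 CPM, 6.43-fold lower (5.39 to 7.71). Of 17 basal and basement membrane genes 2 were higher and 2 lower (median 0.22), shares close to the 12.4% and 8.25% of all measured genes. Of 10 spinous and desmosome genes none was higher and 3 were lower (median -0.30), namely LYPD3 (2.50-fold), FABP5 (2.25-fold) and the desmosomal cadherin DSC2 (1.72-fold). SPINK5, a protease inhibitor of the upper layers, was 2.77-fold lower (2.54 to 3.01). It had UMIs in 188 of the 937 chosen cells, and 1 of these held 142 of the 731 UMIs. The rule set an upper limit on UMIs of KRTDAP, A2ML1 and KRT36 in both groups. The part of that limit in the levels of differentiation genes was not tested.

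**Figure D3:**
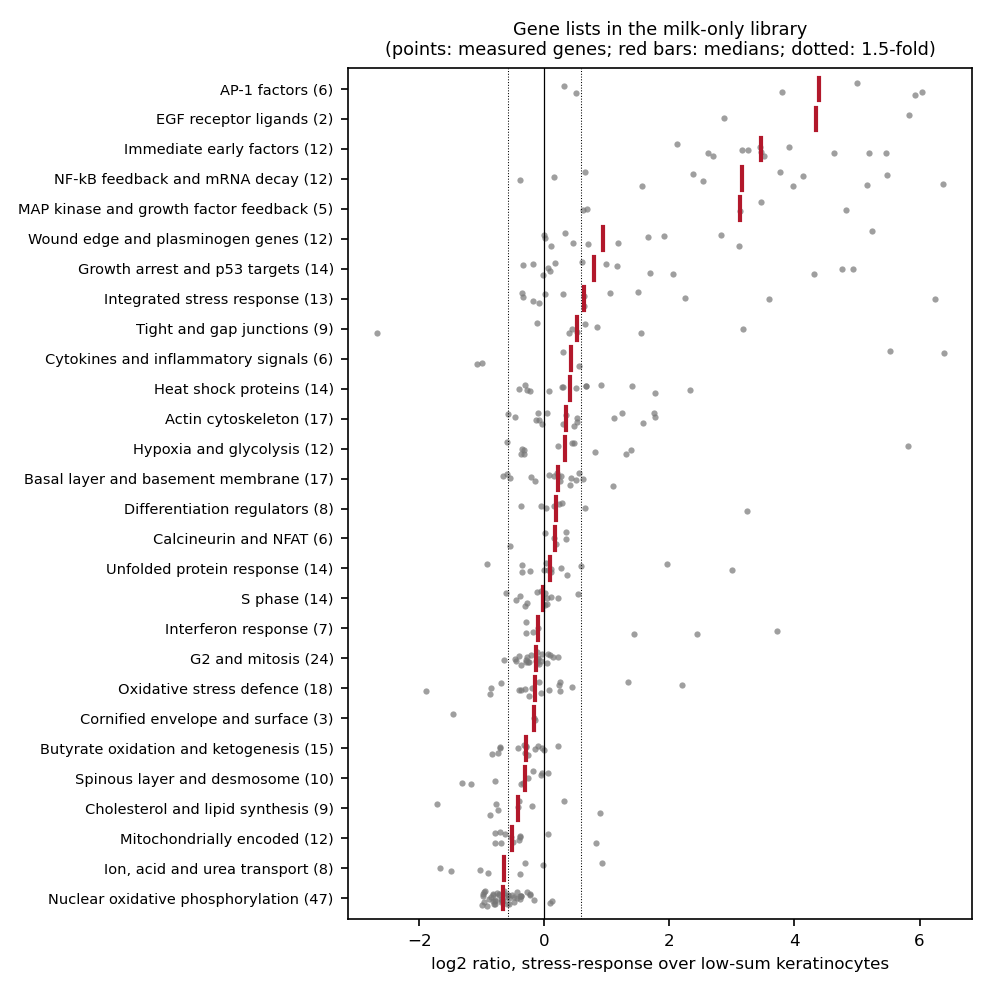
Log2 ratio of stress-response over low-sum keratinocytes (x axis) for the measured genes of the gene lists in the milk-only library, with the number of measured genes in brackets. Grey points are genes, red bars medians and dotted lines 1.5-fold. AP-1 factors had the highest median (4.4) and nuclear oxidative phosphorylation the lowest (-0.67).

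The energy and absorption genes of the rumen epithelium took a smaller share of the messages in stress-response keratinocytes. Of 47 measured nuclear genes of oxidative phosphorylation, 29 were lower at 1.5-fold and none was higher (median log2 ratio -0.67), where 8.25% of all measured genes were lower. The largest of these differences were small, between UQCRB at 263 against 528 CPM (2.01-fold lower) and ATP5MC1 at 379 against 739 CPM (1.95-fold lower). Mitochondrially encoded genes had a median of -0.52, with 5 of 12 lower, among them CYTB at 12146 against 20928 CPM. One of them, ND6, was 1.78-fold higher. The rule set an upper limit on the mitochondrial share in both groups. The butyrate list had 4 of 15 genes lower and none higher (median -0.30), with ECHS1, a hydratase of beta-oxidation, 1.79-fold lower and BDH1, which makes beta-hydroxybutyrate, 1.63-fold lower.

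CA1, a cytosolic carbonic anhydrase, stood at 8224 CPM (8175 to 8272) in stress-response and 23058 CPM (22980 to 23136) in low-sum keratinocytes, 2.80-fold lower. Its relative CA12 was 1.86-fold lower and the anion transporter SLC4A9 3.17-fold lower, while ATP1B1, a sodium pump subunit, was 1.90-fold higher. Across 8 measured transport genes of 34 the median was -0.65. FABP4, a fatty acid binding protein, stood at 535 against 1759 CPM (3.29-fold lower, 3.20 to 3.37). RBP2, a retinol binding protein, was 4.32-fold lower (3.79 to 4.94) and GSTA1, a glutathione transferase, 3.70-fold lower (3.52 to 3.89). Other genes with low ratios were the thioesterase gene THEM5 (2.74-fold lower), the carboxylesterase gene CES2 (2.71-fold), the mitochondrial iron-sulfur protein gene CISD1 (2.65-fold), the glutaredoxin GLRX (2.44-fold), GSTM3 (2.43-fold), HSD17B13 (2.38-fold) and MGST1 (2.17-fold). CPM values are shares of a total. With the 50 most abundant genes left out of the totals, 232 genes were higher and 87 lower at 2-fold.

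Within cells, the early-response genes were broad and CA1 was uneven. ZFP36 had a median of 57.1 UMIs per 10000 in stress-response keratinocytes (quartiles 33.3 and 86.4) and 0 in low-sum keratinocytes. FOS had a median of 29.8 (12.2 and 57.4) against 0, and JUN 55.6 against 0.307. The ranges still overlapped, since single low-sum cells reached 47.1 per 10000 for ZFP36 and 57.5 for FOS, and 3 chosen cells had no ZFP36. CA1 had a median of 17.9 (7.72 and 64.5) in stress-response and 159 (32.9 and 394) in low-sum keratinocytes, and its quartile ranges overlapped.

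Levels are also given by the amount of the 4 genes. Keratinocytes were divided into low-sum cells, cells between the groups, and the lowest, middle and highest tertile of the chosen cells by the sum per 10000 UMIs. ZFP36 stood at 66.9, 718, 3519, 5676 and 8155 CPM in this order, and NFKBIA at 171, 600, 2026, 3242 and 4085 CPM. HSPA5 stood at 162, 300, 942, 1379 and 1694 CPM. CA1 stood at 23058, 25172, 11840, 7784 and 3826 CPM, so cells between the groups resembled low-sum cells in CA1 but not in ZFP36. AREG stood at 5.85, 47.6, 239, 405 and 369 CPM, with the highest level in the middle tertile. These genes were named for their ratio between the chosen and the low-sum cells, so the direction from low-sum cells to the tertiles was set by the choice. The median mitochondrial share was 5.86, 5.6 and 4.99% in the tertiles and the median depth 14374, 12947.5 and 10526 UMIs. Their part in these levels was not tested.

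**Figure D4:**
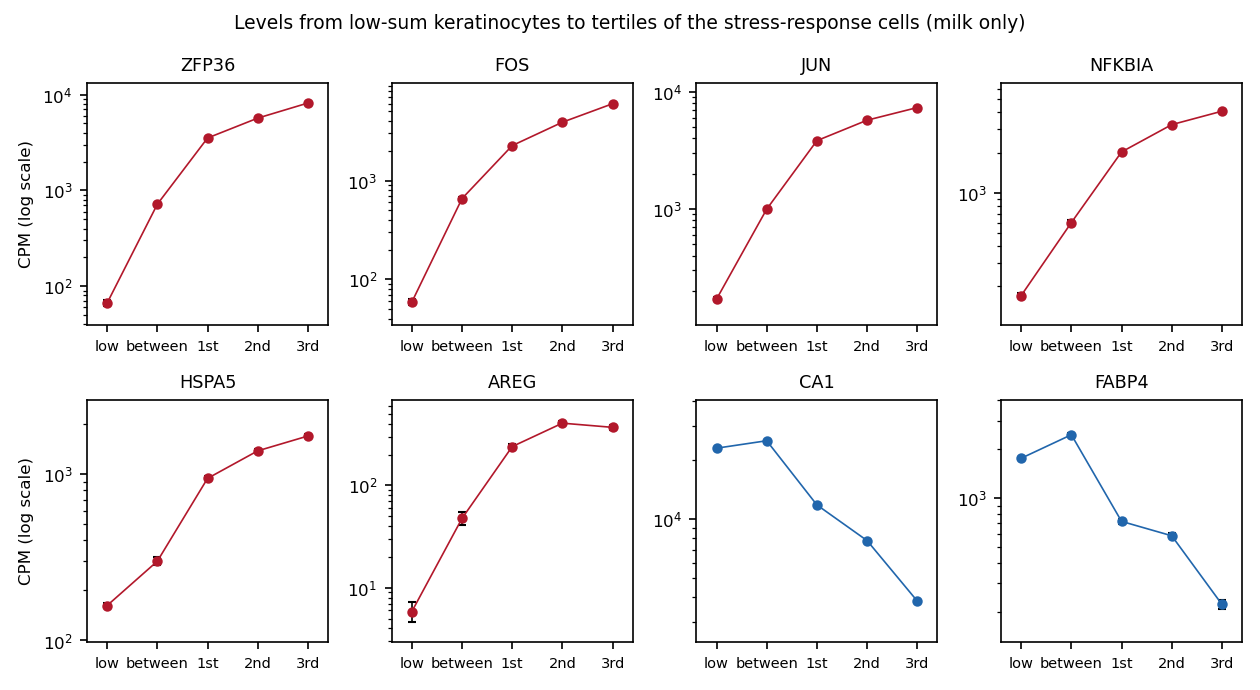
Summed level of 8 genes (CPM, log scale, own range in each panel) in low-sum keratinocytes, in keratinocytes between the groups and in the lowest (1st), middle (2nd) and highest (3rd) tertile of the stress-response keratinocytes, milk-only library. Bars are exact 95% Poisson intervals. ZFP36, FOS, JUN, NFKBIA and HSPA5 were higher at each step, AREG peaked in the middle tertile, and CA1 and FABP4 were lowest in the highest tertile.

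At the lower limit of the rule, 35 cells met it with a sum of 5 or 6 UMIs. They are set beside 67 cells with 3 or 4 UMIs that did not meet it. ZFP36 stood at 3733 CPM inside and 976 outside, FOS at 2757 and 913, and CA1 at 5064 and 24684. Cells outside were deeper, with a median of 16658 against 9289 UMIs, and had a median mitochondrial share of 8.05% against 5.50%. The limit of 4 per 10000 UMIs kept deep cells out of the inside group, so the rule itself favoured this depth difference. Cells with 5 or 6 UMIs that failed that limit were in neither group. The median sum was 5.84 per 10000 UMIs inside and 2.09 outside. The groups were thus not close neighbours, and no sharp separation is read from these levels.

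Within the chosen cells, genes outside the rule varied together to different degrees. After thinning of the 923 chosen cells with at least 5000 UMIs, Spearman's rank correlation across cells of this library was 0.67 for ZFP36 with JUN, 0.48 for ZFP36 with NFKBIA, 0.33 for ZFP36 with FOS, 0.39 for CA1 with FABP4 and -0.50 for ZFP36 with CA1. For FOS with HSPA5 it was -0.22. These are descriptions of cells that share a library and a depth. Levels by RCAN1, a gene of the rule, are given as a description with nothing read from them, in a division chosen after the values were seen. In the 242 thinned cells with at least 2 RCAN1 UMIs HSPA5 stood at 2621 CPM and FOS at 2979 CPM, and in the 577 cells with none at 856 and 4715 CPM. The rule's sum, which holds RCAN1, also differed between them, with medians of 29.0 and 16.7 per 10000.

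Cells that met the rule in the hay and concentrate libraries differed from their own low-sum keratinocytes in many of the same genes. With hay 151 of 4102 measured genes were higher at 2-fold (3.68%) and 58 lower (1.41%), or 116 and 79 under median-of-ratios scaling, with concentrate 255 of 4437 were higher (5.75%) and 229 lower (5.16%). Of the 176 higher genes of the milk-only library measured in both, 95 were also higher at 2-fold with hay, which is 54.0% of the milk-only and 70.9% of the 134 hay genes. With concentrate 118 of 201 were shared (58.7% of the milk-only and 50.9% of 232 concentrate genes). Among lower genes, 24 of 50 were shared with hay (48.0% and 45.3%) and 39 of 51 with concentrate (76.5% and 18.5%). The cells with hay and concentrate were few and shallower, with medians of 6120 and 5794 UMIs.

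The ratios were smaller in the other libraries for most leading genes. In cells meeting the rule, ZFP36 stood at 5546 CPM (milk only), 1484 CPM (hay) and 2836 CPM (concentrate), whereas it stood at 66.9, 74.8 and 70.1 CPM in the low-sum cells. FOS was 65.6-fold higher with milk only, 20.2-fold with hay (19.6 to 20.9) and 34.6-fold with concentrate (33.5 to 35.6). JUN was 31.9-fold, 8.64-fold and 14.9-fold higher. The ratios lay closer together for FOSB (60.8, 37.1 and 60.3-fold), RND3 (13.3, 11.2 and 11.5-fold), KLF4 (9.41, 7.33 and 7.24-fold) and MCL1 (4.16, 3.98 and 4.47-fold). PLK2 was higher by less with milk only (3.21-fold) than with hay (5.04-fold, 4.34 to 5.83) or concentrate (5.56-fold, 4.94 to 6.24). None of these differences between libraries was tested. Outside the milk-only library, cells meeting the rule also carried a lower sum of its 4 genes. The median sum per 10000 UMIs was 20.6 (milk only), 11.3 (hay) and 15.6 (concentrate). Inside the milk-only library, ZFP36, FOS and JUN were higher from each tertile of this sum to the next. The part of the lower sum in the smaller ratios was not tested.

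The ratios lay farther apart for a few genes picked after their values were seen. CDKN1A was 27.1-fold higher with milk only, 2.55-fold with hay (1.55 to 3.99) and 1.79-fold with concentrate (1.13 to 2.72). ADM was 56.6, 6.70 and 4.16-fold higher, ITPKC, a kinase of inositol trisphosphate, 54.0, 11 and 5.94-fold, and HSPA5 8.02, 4.37 and 2.83-fold. HBEGF was 7.31, 4.11 and 1.26-fold higher (0.922 to 1.67 with concentrate). CLDN4 stood at 9.02, 3.24 and 0.446 times the low-sum level, and with concentrate it rested on 3 UMIs (0.091 to 1.33). The differences between libraries were not tested. These cells also differed in the genes that met the rule. Of the rule's UMIs, RCAN1 gave 12.4% (milk only), 1.63% (hay) and 0.913% (concentrate), and ATF3 gave 48.1, 71.1 and 73.8%. The part of this difference in the ratios above was not tested.

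The lower genes were lower in all 3 libraries more often than not. GJA1 was 6.43-fold lower with milk only, 5.81-fold with hay (3.62 to 9.99) and 8.47-fold with concentrate (6.00 to 12.4). FABP4 was 3.29, 4.69 and 7.75-fold lower, and CA1 2.80, 2.07 and 3.94-fold lower. Of the 47 nuclear oxidative phosphorylation genes, 29, 11 and 34 were lower at 1.5-fold (medians -0.67, -0.48 and -0.76), where 8.25, 5.75 and 16.2% of all measured genes were. GSTM3 was 2.43-fold lower with milk only and 1.5-fold with concentrate, but stood at 1.23 times the low-sum level with hay (0.877 to 1.68). Of 12 measured mitochondrially encoded genes, 5, 0 and 0 were lower at 1.5-fold and 1, 2 and 2 higher. Their medians were -0.52, -0.007 and -0.16 with milk only, hay and concentrate.

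**Figure D5:**
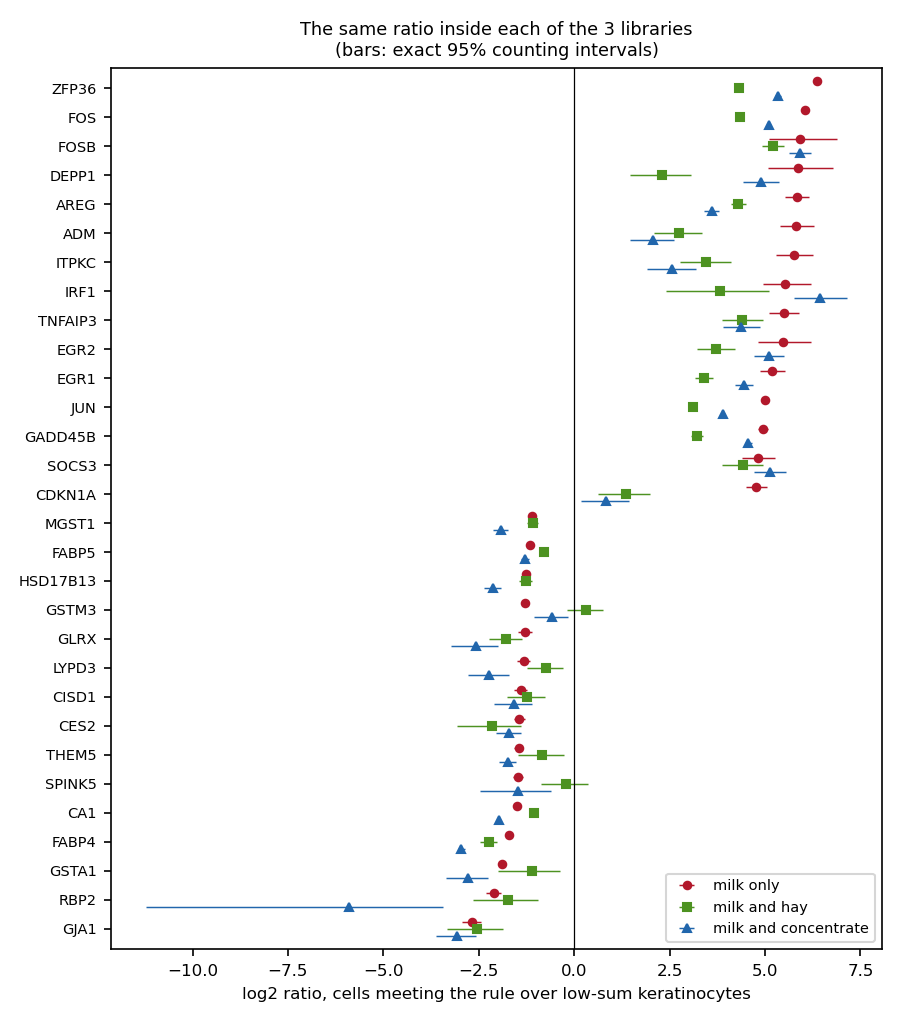
Log2 ratio of cells meeting the rule over low-sum keratinocytes (x axis) in the milk-only (circles), hay (squares) and concentrate (triangles) libraries for 15 genes at the top and 15 at the bottom of the milk-only ratios. Bars are exact 95% counting intervals. FOSB and SOCS3 lay close together in the 3 libraries, CDKN1A and ADM did not, and GJA1 was lower in all 3.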

How the data were processed

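The deposited matrices held UMI counts per gene and barcode, which the authors made with Cell Ranger (version 3.1 per the submitters' processing notes, 5.0.0 per the file headers). Per the labels' protocols, rumen tissue was digested repeatedly in warm trypsin with EDTA, passed through a mesh and loaded for droplet capture. For the genome build, annotation and barcode selection, nothing is given in the sources used here. The lowest UMI count of a barcode was 727, 2263 and 1047 with milk only, hay and concentrate, of 63057979, 56861548 and 60220174 UMIs in all.

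Groups were taken from the sample titles. The chosen cells, the gene lists and the comparisons were selected with earlier results of these data known. Genes carry the deposited symbols, and 14653 of 26247 had a symbol of a single identifier. Doublets were not removed. UMIs were summed over the cells of a group and scaled to CPM, with exact Poisson intervals for levels, exact conditional binomial intervals for ratios and exact Clopper-Pearson intervals for shares, all at 95%, and the limit set for a zero count was 3 counts. They cover counting error only. With 1 library per diet no test was possible. A measured gene had a mean of at least 10 CPM over both groups. A gene was counted at 2-fold, and within the 29 lists at 1.5-fold. Paralogues and overlapping genes may share counts in ways the files do not show.

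The genes named are the 15 highest and 15 lowest ratios among genes with a symbol, 50 CPM or more in the higher group, a 2-fold ratio or more and an interval without 1, and up to 5 genes with the largest ratios from each list. Genes of the rule, ribosomal protein genes and mitochondrially encoded genes were left out of the first part. Markers were named as well. Some results the rule names are not reported here. Scripts (Python 3.11.15, numpy 2.4.6, scipy 1.17.1, pandas 2.3.3, matplotlib 3.10.9) were tested on simulated data. A planned promoter motif search was not run, since no promoter sequences were used here. Alternatives changed the limits of the rule, the depth, the low-sum group, the scaling and the expression limit.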

Additional observations from a re-analysis of the deposited data

Results flagged for a closer look

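Some genes differed in direction between libraries, with intervals on opposite sides of equality, although the difference between libraries was not tested. S100A12, an alarmin of keratinocytes and neutrophils, had a log2 ratio of -1.0 with milk only and 2.11 with hay, where the cells meeting the rule held 46 UMIs from 13 cells. TXNRD1, the cytosolic thioredoxin reductase, had a log2 ratio of 1.33 with milk only and -1.07 with concentrate. ARG2, a mitochondrial arginase, stood at 2.71 and -1.50, and PHLDB3 at 1.40 and -0.69 on the same scale, both chosen after their values were seen. With concentrate TXNRD1 rested on 12 UMIs in the cells meeting the rule.

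The sum of the 4 genes was also reached by cells of the milk-only library outside the keratinocytes compared. Among cells with more than 2 UMIs of KRTDAP, A2ML1 and KRT36 and no PTPRC or C1QA, 111 of 928 reached it (12%, exact Clopper-Pearson interval 9.94 to 14.2), against 0 of 196 with hay (up to 1.86%) and 1 of 133 with concentrate. Among cells with a UMI of PTPRC or C1QA, 111 of 458 reached it (24.2%, 20.4 to 28.4), close to the 10 of 38 with hay (26.3%, 13.4 to 43.1) and 20 of 94 with concentrate (21.3%, 13.5 to 30.9). The median depth of these cells was 9572 UMIs for the former and 6384.5 UMIs for the latter in the milk-only library.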

How the results depend on the processing

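The share of 39.6% became 33.2% with at least 10 UMIs and 8 per 10000, 42.0% with at least 20 KRT15 UMIs, 48.6% with a mitochondrial limit of 10%, 43.5% with at least 1000 genes, 45.6% in cells of 5000 to 20000 UMIs, 34.9% with cells thinned before the whole rule, 31.7% with ATF3 left out of the sum and 33.8% with BHLHE40 left out. It was 35.9% with the 4 genes alone counted after thinning, an alternative chosen after seeing the data. The 268 higher genes became 583 from 1 CPM and 89 from 50 CPM, and were 232 to 309 otherwise. The 55 lower genes became 83 with at least 10 UMIs and 8 per 10000, 154 in cells of 5000 to 20000 UMIs, 177 with thinned cells (172 in the added version), 90 without cycling cells, 145 with cells weighted alike, 87 without the 50 most abundant genes, 341 from 1 CPM and 26 from 50 CPM. With hay the 151 higher genes became 593 with at least 10 UMIs, 296 and 305 with the thinned versions, 619 without ATF3, 804 from 1 CPM and 47 from 50 CPM. Its 58 lower genes became 203 with at least 10 UMIs, 164 and 165 with the thinned versions, 425 without ATF3, 480 from 1 CPM and 18 from 50 CPM. With concentrate the 255 became 411 without ATF3, 383 in the added version, 988 from 1 CPM and 76 from 50 CPM, and its 229 lower genes 412 without ATF3, 861 from 1 CPM and 94 from 50 CPM. Apart from the expression limits, which change the genes tested, the cause of these shifts was not tested. All 61 named higher and 20 named lower genes kept their direction in the milk-only library under every alternative, and 59 and 15 stayed past 2-fold. No list median turned its direction where it had passed 1.5-fold. No paired analysis was possible because each diet had 1 library. Shallow cells of the hay and concentrate libraries limit their ratios.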

Other observations

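Antioxidant and lipid genes of the stress-response keratinocytes of the milk-only library differed by gene more than by group. Over all measured genes of the library, 12.4% were higher and 8.25% lower at 1.5-fold. Of 18 measured oxidative stress defence genes of 26, 2 were higher at 1.5-fold, near that share, 4 were lower and the median log2 ratio was -0.15. BACH1, a repressor of antioxidant genes, stood at 27.2 against 5.92 CPM in low-sum keratinocytes (4.6-fold, 3.63 to 5.89), and TXNRD1 at 21.2 against 8.4 CPM (2.52-fold, 2.03 to 3.14). PRDX6, a peroxiredoxin, stood at 345 against 627 CPM (1.82-fold lower) and GCLM, a subunit of the enzyme that begins glutathione synthesis, at 14.6 against 26.2 CPM (1.8-fold lower). Of 9 measured cholesterol and lipid genes of 26, 4 were lower, 1 was higher and the median was -0.42. IDI1, an isomerase of isoprenoid synthesis, was 1.71-fold lower and HMGCS1 1.68-fold lower, while PLIN2, a coat protein of lipid droplets, was 1.84-fold higher (1.67 to 2.03). Of 3 measured genes of the cornified envelope list of 25, 1 was lower and the median was -0.16.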
